A study of Homo sapiens with 4 samples.

Results

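Berberine was set against its control after 4 h of treatment in HepG2 cells, an established human hepatoma line, with 1 Agilent human miRNA microarray for each condition. The treated cells received 40 µM berberine chloride, a plant alkaloid dissolved in dimethyl sulfoxide (DMSO), and the control cells received 0.08% DMSO alone. Total RNA was labelled with the single dye Cy3. These 2 arrays are taken from the 4 arrays of the series, and the other pair was sampled after 2 h of the same treatments. The arrays were chosen by their labels, so no measured value entered the choice. The labels name 1 sample per condition, so how far repeat cultures would vary is not known here and no test or p-value was computed. Every error below is the measurement error that the scanner software gives for a signal on 1 array, or the standard error (SE) of a log2 ratio propagated from it. For bright probes this error was a nearly constant share of the signal. In control cells the probes of miR-21 had 675 on 6737 and 406 on 4058, and a probe of miR-720 had 1150 on 11493. The SE of bright miRNAs therefore varies little from one to another. Having 1 array per condition limits how precise any value is.

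A miRNA is cut from a hairpin precursor, and either strand of the hairpin stem, its 5p or its 3p arm, can be loaded into an Argonaute protein. The loaded strand pairs with messenger RNAs mainly through its seed, bases 2 to 8 from the 5′ end, so miRNAs that share a seed form a family with overlapping targets. Hairpins that lie close together on a chromosome are often cut from 1 primary transcript and form a genomic cluster. An asterisk in an array name marks the strand that was thought to be the less abundant one of its hairpin when the array was designed. HepG2 keeps many miRNAs of the hepatocyte.

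The array lists 851 human miRNAs. On the control array of 4 h 226 were detected and for berberine 242, and 218 were detected on both. In 3 of these 218 (miR-1825, miR-548d-5p and miR-595) no single probe was detected on both arrays, which left 215 miRNAs measured. No spot was saturated. The berberine array was the brighter one, with a 75th percentile of 297 against 225 over the 197 human miRNAs that every one of the 4 arrays detected. Each ratio below is berberine over control on the log2 scale, from the summed signal of the same probes on both arrays, after this difference of 0.40 was taken out. The scaled median of the 215 miRNAs was 0.08. Since a constant scaling shifts all miRNAs together, families and clusters are also given against this median, and that difference does not depend on which constant is used.

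Mature sequences of miRNAs described below are shown first, as RefSeq gives them in GRCh38.p14, from 5′ to 3′ with the seed in capitals. Of the 215 measured miRNAs, 182 were matched to such a sequence. miR-21* was not among them, so its sequence is not shown and it entered no family or cluster. The arms of the MIR194-2 hairpin are shown because their ratios went apart. Both arms lie on the minus strand of chromosome 11, miR-194 at chr11:64891404-64891425 and miR-194* at chr11:64891368-64891389. A second hairpin, MIR194-1, gives the same miR-194 sequence at chr1:220118206-220118227, inside the span of the protein-coding gene IARS2.
miR-194: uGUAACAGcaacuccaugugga
miR-194*: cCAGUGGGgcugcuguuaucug

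The next sequences belong to other miRNAs at either end of the distribution of ratios. MIR630 lies inside the span of the protein-coding gene ARIH1 (chr15:72587277-72587298), miR-1915 at chr10:21496576-21496595, miR-362-3p inside the span of the chloride transporter gene CLCN5 (chrX:50009005-50009026), and miR-374b inside the long non-coding RNA gene FTX (chrX:74218587-74218608). The miR-191* arm lies inside the spans of DALRD3 and NDUFAF3 (chr3:49020631-49020652) and miR-940 at chr16:2271806-2271826.
miR-630: aGUAUUCUguaccagggaaggu
miR-1915: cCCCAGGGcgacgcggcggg
miR-362-3p: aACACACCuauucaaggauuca
miR-374b: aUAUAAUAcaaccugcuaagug
miR-191*: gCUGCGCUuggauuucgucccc
miR-940: aAGGCAGGgcccccgcucccc

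The last sequences are members of the families that lay farthest above the median, and of the largest family, let-7, which lay below it.
miR-27a: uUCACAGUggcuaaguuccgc
miR-27b: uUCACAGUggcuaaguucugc
miR-23a: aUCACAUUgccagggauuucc
miR-23b: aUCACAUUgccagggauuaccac
miR-99a: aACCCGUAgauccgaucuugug
miR-99b: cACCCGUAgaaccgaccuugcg
miR-100: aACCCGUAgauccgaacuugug
miR-29a: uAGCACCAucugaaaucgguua
miR-29b: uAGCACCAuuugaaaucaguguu
miR-29c: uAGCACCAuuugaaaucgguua
miR-21: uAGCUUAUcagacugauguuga
miR-590-5p: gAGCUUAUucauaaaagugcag
let-7a: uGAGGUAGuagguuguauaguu
let-7d: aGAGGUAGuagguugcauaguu
let-7e: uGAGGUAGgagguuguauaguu
miR-98: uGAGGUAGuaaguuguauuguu

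After 4 h the miRNA profile of the treated cells was close to that of the control cells. Of the 215 miRNAs, 207 (96.3%) lay within 1.5-fold of an unchanged scaled signal, and the lower and upper quartiles were -0.06 and 0.16. The share above 2-fold higher was 0.465% (1 of 215, miR-21*) and the share above 2-fold lower was also 0.465% (1 of 215, miR-194*). miR-194* was no longer past 2-fold without scaling (-0.92), with scaling to control features (-0.85) or with normexp background correction (-0.61), and miR-21* was not with normexp (0.52). A log2 ratio lay above 0 by more than the 95% range of its measurement error in 11 miRNAs (5.12%) and below 0 in 5 (2.33%). These ranges leave out the variation between cultures, so the counts describe these 2 arrays. After 2 h, by the same steps, 196 miRNAs were measured with a median of 0.01. Of these, 1.53% passed 2-fold upward and 0% downward, 8.16% lay above 0 and 0.51% below 0 beyond the 95% range, 52.6% were above 0 at all, and 50% lay on either side of their median. Array brightness ran the other way after 2 h, with a 75th percentile of 169 for berberine and 243 for control.

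**Figure D1:**
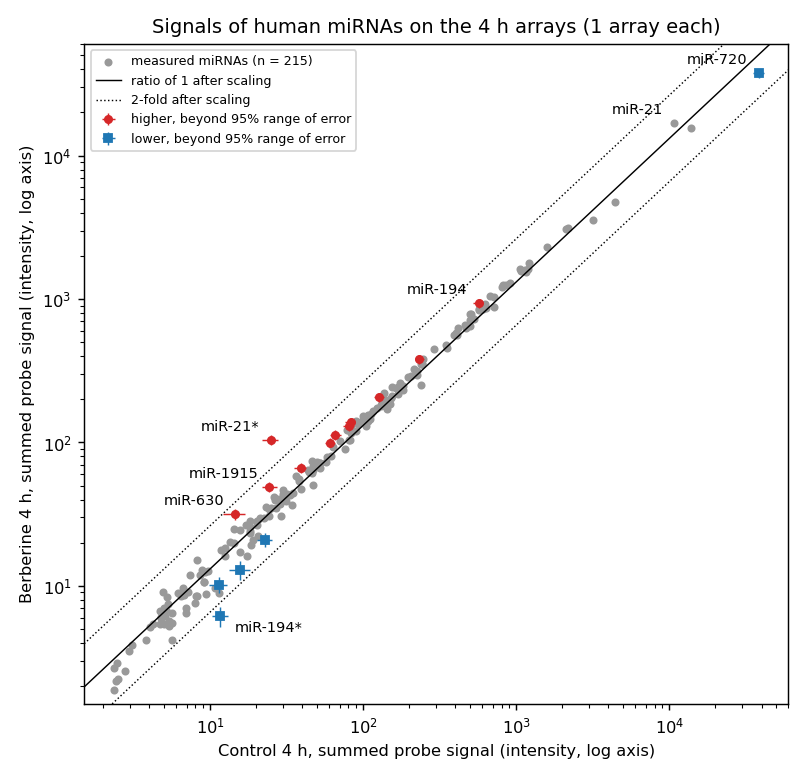
Summed probe signal of each of the 215 measured miRNAs on the control array (x) and the berberine array (y) at 4 h, both in intensity units on log axes. The solid line is a scaled ratio of 1, the dotted lines are 2-fold changes, and the bars on coloured points are the measurement error of each array. miR-21* lies above the upper dotted line and miR-194* below the lower one, and red and blue points are the 11 higher and 5 lower miRNAs beyond their 95% range of error.

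The strand with the largest difference was miR-21*, the 3p arm of the MIR21 hairpin. Its signal was 24.7 ± 2.89 in control cells and 104 ± 7.90 in treated cells, where ± is the measurement error. The scaled log2 ratio was 1.68 (SE 0.20), or 3.20-fold higher with berberine. Both of its probes gave the direction. Their scaled folds were 4.37 and 2.80, and the spots of the 2 arrays did not overlap for either probe. In control cells the first probe was near background, with 2 of its 8 spots called well above it. For the first probe 5 of 8 spots in control cells and 7 of 8 in treated cells were used, the others being left out as outliers. The spots used ran from 10.2 to 13.0 in control cells and from 49.7 to 57.0 in treated cells after scaling. After 2 h the log2 ratio of miR-21* was 2.59 (SE 0.18).

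The other arm of the same hairpin, miR-21, is the abundant 5p strand, known as an oncogenic miRNA that represses the tumor suppressor PDCD4. It gave 10795 ± 788 in control cells and 16769.7 ± 1219 in treated cells. Its scaled log2 ratio was 0.24 (SE 0.15), whose 95% range of -0.05 to 0.53 includes 0. The arms of MIR21 thus differed by 1.44 (SE 0.25) in log2 ratio. The spots of both miR-21 probes also did not overlap between the arrays after scaling, at folds of only 1.17 and 1.20. Spots that do not overlap therefore do not mark a large difference here. The share of probes without overlap over all miRNAs was not computed. The other matched miRNA with the seed of miR-21, miR-590-5p, had 63.4 ± 5.02 and 93.1 ± 6.89, a log2 ratio of 0.15 (SE 0.16). The summed signal of this seed pair gave 0.24 (SE 0.15).

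The MIR194-2 hairpin showed the opposite arrangement. miR-194, an epithelial miRNA enriched in liver and intestine, had a signal of 566 ± 43.3 in control cells and 931 ± 70.6 in treated cells. Its scaled log2 ratio was 0.32 (SE 0.16), or 1.25-fold higher. miR-194*, from the other side of the same stem, had 11.7 ± 1.38 in control cells and 6.15 ± 0.948 in treated cells, a log2 ratio of -1.32 (SE 0.28). The difference between the arms was -1.64 (SE 0.32). Of the 4 probes for miR-194*, 2 were detected, with scaled folds of 0.383 and 0.415, and the spots of the 2 arrays did not overlap for either one after scaling. Without scaling the spots of both probes overlapped, running from 11.4 and 16.5 upward in control cells and up to 12.8 and 17.2 in treated cells. These are dim spots. On the berberine array 1 and 3 of the 4 spots of the detected probes were called well above background. After 2 h the log2 ratios of miR-194 and miR-194* were -0.05 (SE 0.16) and -0.11 (SE 0.34). miR-194* comes from MIR194-2 alone, whereas miR-194 also comes from MIR194-1, and the array cannot separate these sources.

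Next below miR-21* stood miR-630 and miR-1915, neither of which reached 2-fold. miR-630, studied for its part in the response to DNA damage and in apoptosis, had 14.5 ± 2.33 in control cells and 31.5 ± 2.79 in treated cells. Its log2 ratio was 0.72 (SE 0.26), and both probes were higher after scaling, by 1.55-fold and 1.78-fold, with no overlap of the spots used. In control cells only 4 and 6 of the 8 spots of these probes were used, the others being left out as outliers. With another background correction (normexp), miR-630 was at -0.14, where the median of all miRNAs was -0.15. miR-1915 had 24.4 ± 2.72 and 48.9 ± 3.84, a log2 ratio of 0.61 (SE 0.20), and its 2 probes gave 1.59-fold and 1.46-fold with no overlap of the spots used. For its second probe 5 of 8 control spots were used. These 2 and miR-21* were the 3 measured miRNAs that lay above the median of 0.08 by more than the 95% range of their measurement error, and 16 lay below it by more. After 2 h the log2 ratio of miR-1915 was 0.08 (SE 0.21) and that of miR-630 was -0.62 (SE 0.28).

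The other differences above 0 beyond the range were small. miR-362-3p went from 38.9 ± 3.52 to 66.7 ± 5.18, a log2 ratio of 0.38 (SE 0.17). miR-27a, a regulator of lipid metabolism and adipogenesis, went from 65.8 ± 5.44 to 112 ± 8.76, a log2 ratio of 0.38 (SE 0.16). miR-374b had 0.34 (SE 0.15), and miR-99b, whose family is known to repress MTOR, had 0.32 (SE 0.16). The remaining ones were miR-194, described with its hairpin, and miR-128, miR-30b and the hypoxia-induced miR-210, which had log2 ratios of 0.31, 0.31 and 0.30. None of these exceeded the 95% range when set against the median of 0.08 in place of 0.

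Below 0 beyond the range, after miR-194*, were miR-1234, miR-191*, miR-940 and miR-720. miR-1234 had 15.7 ± 2.37 in control cells and 13.0 ± 1.91 in treated cells, a scaled log2 ratio of -0.68 (SE 0.30). miR-191* had 11.3 ± 1.59 and 10.2 ± 1.29, a ratio of -0.55 (SE 0.27), and the spots of each of its 4 probes overlapped between the arrays after scaling. miR-940 had 22.8 ± 2.66 and 21.0 ± 2.28, a ratio of -0.52 (SE 0.23), with overlap at both probes. The unscaled signals of these 3 differed little between the arrays, with unscaled log2 ratios of -0.28, -0.15 and -0.12, and 0.40 of each scaled difference is the scaling shift. After 2 h each of the 3 had a log2 ratio above 0, 0.49 for miR-1234, 0.41 for miR-191* and 0.25 for miR-940, each within its 95% range.

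miR-720 and several other entries of this array are today regarded as pieces of transfer, ribosomal or small nuclear RNA rather than as miRNAs. The entries taken as such were miR-720, miR-1274a, miR-1274b, miR-1260, miR-1280, miR-1308, miR-1826, miR-923 and miR-1246, and this list was drawn up after their values had been seen. All 9 were measured, and all 9 lay below the median of the 215 miRNAs. miR-720 had 38321 ± 2924 in control cells and 37534 ± 2861 in treated cells, a log2 ratio of -0.43 (SE 0.16), which became -0.03 without scaling and 0.04 with scaling to the control features described next. miR-1274b had 13824 ± 1025 and 15665 ± 1157, a ratio of -0.22 (SE 0.15). miR-1260 had 4434 ± 411 and 4717 ± 435, a ratio of -0.31 (SE 0.19), and miR-1274a had 3179 ± 261 and 3565 ± 291, a ratio of -0.23 (SE 0.17). Their ratios ran from -0.43 to 0.03 with a median of -0.22. The 71 other miRNAs with a control signal above 100 had a median of 0.12, ran from -0.12 to 0.32, and lay below the overall median in 21 cases. miR-1826, at 9.25 in control cells, was the 1 entry of the 9 below that signal, and its log2 ratio was 0.03 (SE 0.34). After 2 h all 9 entries had a ratio above 0, with a median of 0.42, against -0.02 for those 71 miRNAs. The entries were thus low relative to other miRNAs on the brighter berberine array of 4 h and high on the dimmer berberine array of 2 h, and the part of array brightness in this was not tested.

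The control features of the arrays give a reference that does not use the cells' miRNAs. Without scaling, the 10 control features detected on both arrays had log2 ratios from -0.16 to 0.36 with a median of -0.07, and the 4 named dmr lay between -0.15 and -0.05. The measured miRNAs had an unscaled median of 0.48, and the 9 fragment-like entries 0.18. Of the 215 miRNAs, 200 had an unscaled ratio above all 4 dmr features, and 156 had one above all 10 control features. The amount of RNA on each array, its labelling and the cells' content of miRNA cannot be told apart here.

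**Figure D2:**
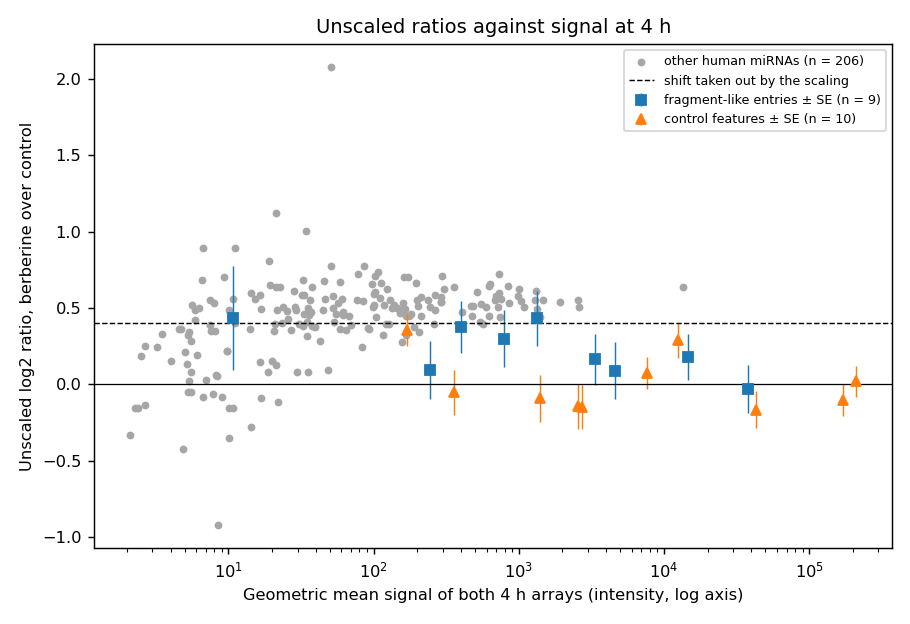
Unscaled log2 ratio of berberine over control at 4 h against the geometric mean signal of both arrays (intensity, log axis), for the other human miRNAs measured (grey), 9 entries regarded as fragments of other RNAs (blue squares) and 10 control features (orange triangles), the latter 2 kinds with bars of 1 SE. The dashed line is the shift of 0.40 that the scaling takes out, and the median of the fragment-like entries, 0.18, lies between that of the control features, -0.07, and that of all measured miRNAs, 0.48.

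By seed, 27 families had at least 2 measured members and together held 74 miRNAs. Of the summed family ratios, 18 lay above the median of all measured miRNAs and 9 below. The range between members of a family had a median of 0.06 and was 0.36 at the widest. Of the 27 families 16 were pairs, and the quartiles of all 215 miRNAs, -0.06 and 0.16, were themselves close. Ranges among unrelated miRNAs were not computed, so the closeness is no result about families. Only 1 family departed from the median by more than the 95% range of its error. That family was the pair let-7b* and let-7f-1*, with a summed signal of 8.02 in control cells and 6.35 in treated cells and a log2 ratio of -0.74 (SE 0.35). Both members were dim, at 2.40 and 5.62 in control cells, and 1 of 4 probes for let-7b* and 2 of 4 for let-7f-1* could be summed. With the total signals as deposited, which need not hold the same probes, let-7b* was higher with berberine, at 6.26 against 2.40, and the sum of the pair was -0.18 against a median of 0.11. The range of every other summed family included the median. By construction 49.8% of all measured miRNAs lay above the median and 49.8% below, and the counts of members below are read against that.

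Highest among the families was the seed shared by miR-27a and miR-27b. Their summed signal was 568 in control cells and 904 in treated cells, a log2 ratio of 0.27 (SE 0.13), which is 0.19 above the median. miR-27b itself went from 502 ± 37.0 to 791 ± 58.2, a ratio of 0.26 (SE 0.15). The seed pair miR-23a and miR-23b, transcribed with them, followed at 0.26 (SE 0.13). miR-23a went from 136 to 220, a ratio of 0.30, and miR-23b from 500 ± 40.0 to 781 ± 62.1, a ratio of 0.24. The seed of miR-99a, miR-99b and miR-100 had 0.25 (SE 0.12). Its members were at 0.32 for miR-99b, 0.30 (SE 0.38) for miR-100 and 0.07 (SE 0.19) for miR-99a.

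The 3 members of the miR-29 family, which represses collagens and DNA methyltransferases, all lay above the median. miR-29a went from 809 ± 59.6 to 1208 ± 88.9, a log2 ratio of 0.18. miR-29b went from 812 ± 66.3 to 1252 ± 102, a ratio of 0.23, and miR-29c from 288 ± 20.6 to 449 ± 32.0, a ratio of 0.24. The sum was 0.21 (SE 0.10), or 0.12 above the median. The miR-17 seed, a MYC-induced group that lowers CDKN1A and E2F1, had 5 of its 6 matched members measured and 4 of them above the median. Its sum was 0.17 (SE 0.08), and its members ran from 0.01 for miR-93 to 0.24 for miR-106b.

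The let-7 family, 9 members that repress RAS genes, HMGA2 and LIN28, was the largest and was measured whole. Of its 9 members, 8 lay below the median, against 49.8% of all measured miRNAs. let-7f, at 532 ± 40.9 on the control array, had 726 ± 55.5 in treated cells and a log2 ratio of 0.05 (SE 0.16). let-7a had 496 ± 35.9 and 651 ± 47.2, a ratio of -0.01 (SE 0.15), and let-7e had 182 ± 13.1 and 231 ± 16.5, a ratio of -0.06 (SE 0.15). let-7d alone lay above the median, at 0.18 (SE 0.20), and miR-98 was lowest, at -0.18 (SE 0.35). The summed signal of the family was 1480 in control cells and 1973 in treated cells. Its log2 ratio was 0.02 (SE 0.08), which is 0.07 below the median and within the error.

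The other families of 3 or more members stayed near the median. The seed of miR-15a, miR-15b and miR-16, which lowers BCL2, had a sum of 0.11 (SE 0.10), and that of miR-25, miR-32 and miR-92a had 0.15 (SE 0.10). The seed of miR-148a, miR-148b and miR-152, which targets DNMT1, had 0.14 (SE 0.14). The miR-130 and miR-301 seed had 0.07 (SE 0.09), and the seed of miR-200b, miR-200c and miR-429 had 0.08 (SE 0.12). The miR-320 seed had 0.05 (SE 0.09) and the miR-181 seed had 0.04 (SE 0.15). miR-130a, at 0.12, and miR-320a, at 0.15, were measured but not placed in a family, so these sums leave them out.

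**Figure D3:**
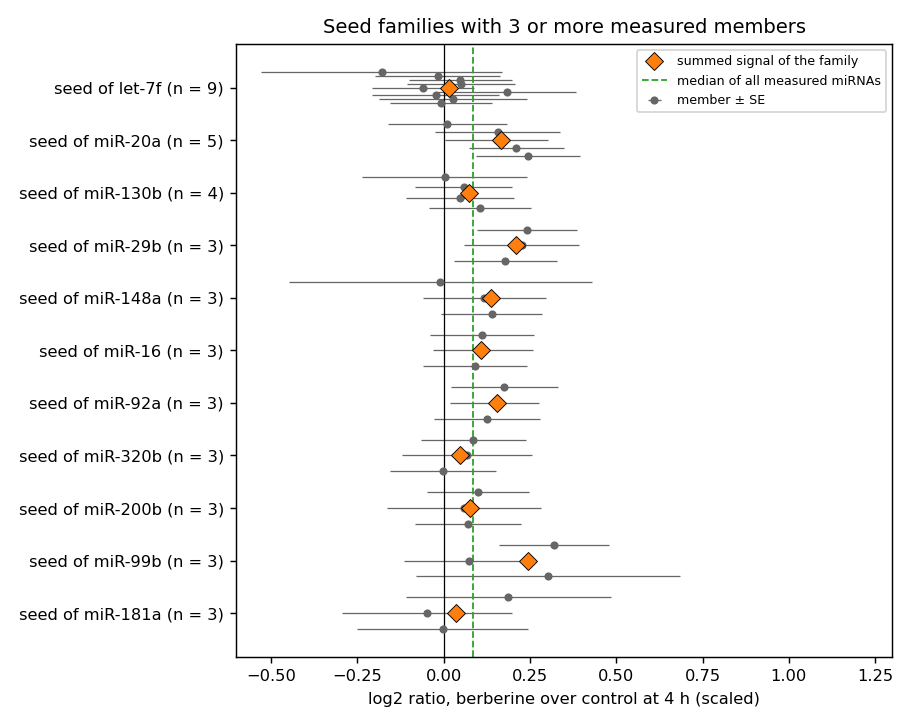
Scaled log2 ratio of berberine over control at 4 h (x) for each member (grey, with 1 SE) and for the summed signal (orange diamonds) of the 11 seed families with 3 or more measured members, each labelled by one of its members. The green dashed line is the median of all 215 measured miRNAs, 0.08, and 8 of the 9 let-7 members lie to its left while all 3 miR-29 members lie to its right.

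By position, 31 genomic clusters (hairpins on 1 strand with neighbours within 10 kb) had at least 2 measured miRNAs, and 87 miRNAs lay in them. A miRNA made from several hairpins is counted in each of its clusters, so clusters that share miR-24, miR-29b, miR-16, miR-19b, miR-92a, miR-194, miR-181a, miR-181b, let-7a or let-7f are not independent. Of the summed ratios, 18 lay above the median of all measured miRNAs and 13 below. The 3 hairpins MIR24-2, MIR27A and MIR23A on chromosome 19 had a sum of 0.25 (SE 0.10), and their paralogs MIR23B, MIR27B and MIR24-1 on chromosome 9 had 0.24 (SE 0.09). miR-24, produced by both, went from 416 ± 29.6 to 632 ± 44.8, a ratio of 0.20 (SE 0.14). MIR421 and MIR374B on the X chromosome had the highest sum, 0.32 (SE 0.14).

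The cluster with the most measured miRNAs was that of MIR532, MIR500A, MIR362, MIR501 and MIR502 on the X chromosome, with 10. Its sum was 0.19 (SE 0.08), and its members ran from -0.34 for miR-502-5p to 0.41 for miR-532-3p with 7 of 10 above 0, against 63.3% of all measured miRNAs. The miR-17 to miR-92a cluster on chromosome 13 had 9 measured miRNAs and a sum of 0.14 (SE 0.07). Its 6 miRNAs named without an asterisk ran from 0.05 for miR-18a to 0.21 for miR-17. Its 3 strands with an asterisk were at -0.01 (SE 0.18) for miR-17*, -0.26 (SE 0.26) for miR-20a* and -0.48 (SE 0.29) for miR-19b-1*, each with a 95% range that includes 0. The related cluster on the X chromosome had 4 measured miRNAs between 0.10 and 0.18, and the cluster of MIR25, MIR93 and MIR106B on chromosome 7 had a sum of 0.14 (SE 0.09). In the cluster of MIR29A and MIR29B1, miR-29a and miR-29b were at 0.18 and 0.23, and their strands with an asterisk at -0.21 (SE 0.59) and -0.37 (SE 0.31), both within their error. miR-29a* was at 0.30 with quantile normalization.

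**Figure D4:**
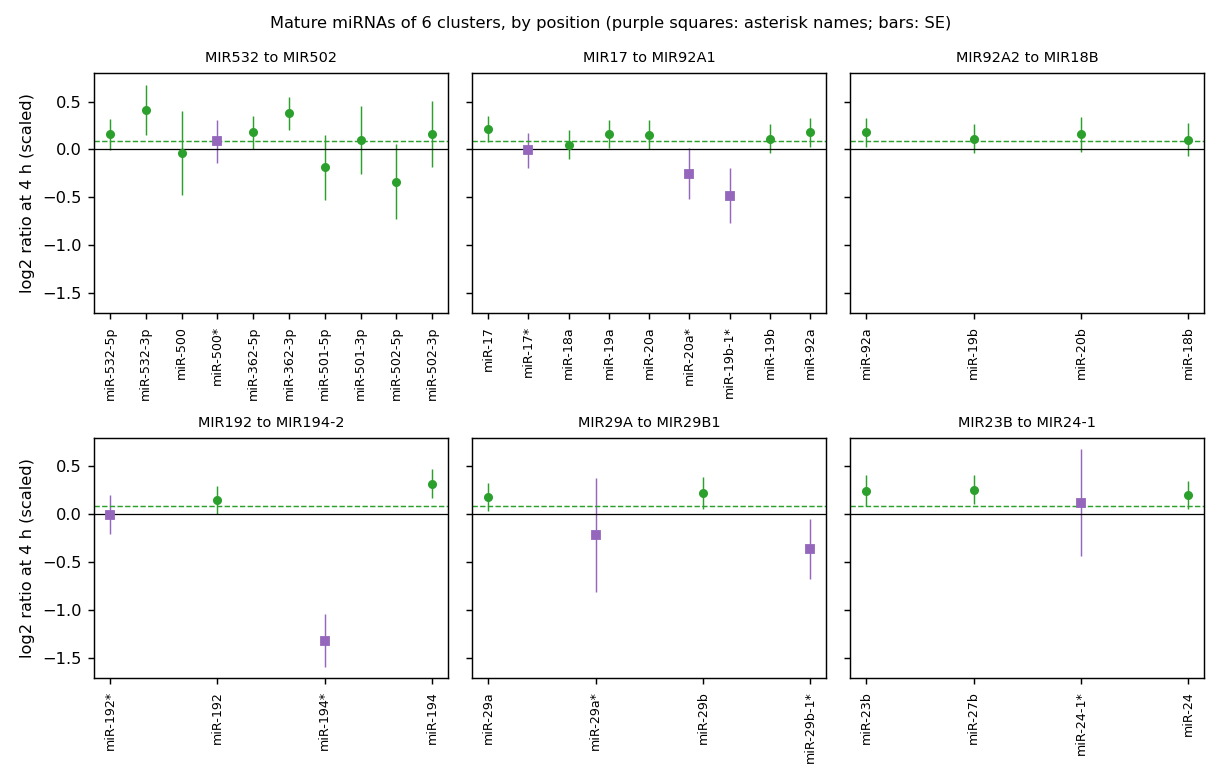
Scaled log2 ratio of berberine over control at 4 h (y, with 1 SE) of each mature miRNA in 6 genomic clusters, those with the most measured members and, among the 6 tied at 4, those with the highest summed control signal, in order of position, with the green dashed line at the median of all measured miRNAs. Purple squares are strands named with an asterisk. They lie at or below 0 in the clusters of MIR17, MIR192 and MIR29A, with miR-194* lowest at -1.32, and above 0 for miR-500* and miR-24-1*.

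Only the cluster of MIR425 and MIR191, of which miR-425* and miR-191* were placed, departed from the median by more than its 95% range, with a sum of -0.55 (SE 0.24). That sum, 22.0 in control cells and 19.8 in treated cells, leaves out the much brighter main strand miR-425, which had no matched sequence. miR-425 had 242 ± 18.6 and 352 ± 26.7, a log2 ratio of 0.14 (SE 0.16). The departure is thus that of the dim strands placed and does not describe the cluster as a whole. The clusters of let-7 hairpins lay at or below the median, from 0.05 for MIR99B, MIRLET7E and MIR125A to -0.01 for MIRLET7A3 and MIRLET7B. MIR182, MIR96 and MIR183, a cluster of sensory organs that many epithelial tumors express, had -0.01 (SE 0.11).

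Over all hairpins, both arms were measured in 38. In 26 of them 1 arm was named with an asterisk, and that arm had the lower log2 ratio in 22. The median difference was -0.29, with medians of 0.14 over the 26 main arms and -0.14 over the 26 arms with an asterisk. Without MIR21 and MIR194-2 the arm with an asterisk was lower in 21 of 24, by a median of -0.29. The difference lay beyond the 95% range of its error in 2 of the 26 hairpins only, the hairpins of miR-21 and miR-194. In the 12 hairpins whose arms are named 5p and 3p, the 3p arm was lower in 5 and higher in 7, with a median difference of 0.09, and none beyond the range. miR-140-3p was at 0.26 (SE 0.17) and miR-140-5p at -0.08 (SE 0.15).

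Arms with an asterisk were also the dim ones, with a control signal below 15 in 20 of the 26 and a median SE of 0.36 against 0.15 for the main arms. Among miRNAs measured on both 4 h arrays, dim ones of any name had lower ratios. Those detected on 1 array only have no ratio and do not enter, 24 of them seen with berberine and 8 in control cells. In the 54 miRNAs with the lowest mean signal, between 2.11 and 14.4, the median log2 ratio was -0.17 and 15 were above 0. In the 3 brighter groups of like size the medians were 0.09, 0.10 and 0.14. After 2 h, with the berberine array the dimmer one, the same 4 groups had medians of 0.30, 0.05, -0.01 and -0.03. These medians rest on the 195 miRNAs measured at both times. The arms with an asterisk then differed from their partners by a median of -0.04 over 13 hairpins. Base composition moved with the ratio too. In the 42 matched miRNAs with a GC content of 56.5% or more the median was -0.08, against 0.11, 0.11 and 0.09 in the 3 groups of lower GC content, and their median control signal was 17.8 against 103, 82.5 and 30.7. The part of signal, array brightness or GC content in the difference between arms was not tested.

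**Figure D5:**
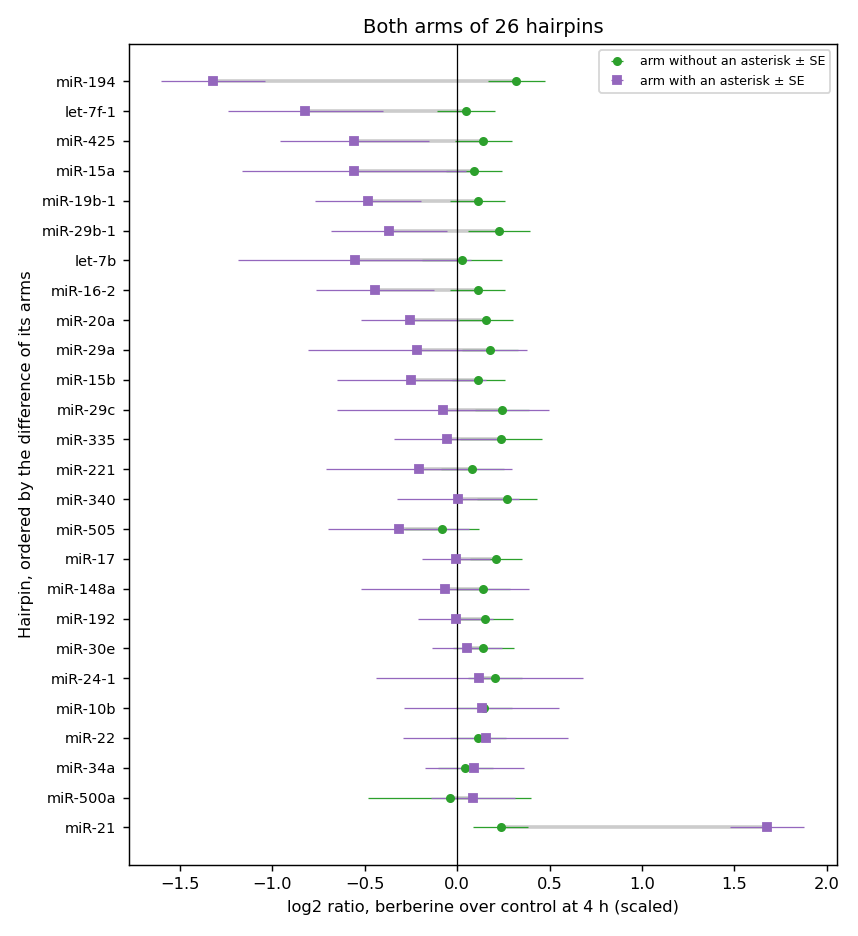
Scaled log2 ratio of berberine over control at 4 h (x, with 1 SE) for both arms of the 26 hairpins with 1 arm named with an asterisk, green circles for the main arm and purple squares for the arm with an asterisk, ordered by their difference (y). The bars of most pairs overlap, but those of several pairs do not. The largest differences are in miR-194, where the arm with an asterisk is lower by 1.64, and miR-21, where it is higher by 1.44.

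The profile carried the listed miRNAs of hepatocytes and of epithelium, with miR-122 among the dimmer ones. All 6 hepatocyte miRNAs of a marker list were detected on both arrays and all 6 had a ratio above 0, from 0.01 to 0.32, against 63.3% of all measured miRNAs above 0. All but miR-122 were among the 54 miRNAs with the highest mean signal, of which 45 were above 0. With scaling by the 75th percentile over all human miRNAs all 6 lay below 0, from -0.40 to -0.09. The list includes miR-21, described above as an oncogenic miRNA, and miR-194, described above as an epithelial miRNA of liver and intestine. miR-122, the most abundant miRNA of the normal liver, gave 30.1 ± 3.02 in control cells and 39.9 ± 3.32 in treated cells, a log2 ratio of 0.01 (SE 0.19). By control signal miR-122 ranked only 124 on the array, close to miR-145 of the fibroblast and smooth muscle list at 29.9. miR-192 went from 1069 ± 78.3 to 1565 ± 113, a ratio of 0.15 (SE 0.15), and miR-215, which shares its seed, from 626 ± 44.4 to 921 ± 65.2, a ratio of 0.16 (SE 0.14). miR-148a, abundant in hepatocytes, went from 1593 ± 114 to 2313 ± 165, a ratio of 0.14 (SE 0.15). The 5 epithelial miRNAs, those of the miR-200 group that repress ZEB1 and ZEB2, were all detected and ran from 0.05 to 0.10.

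Markers of other cell types were mostly not detected, apart from miR-128, 1 of 3 in a neuronal list. None of the 4 muscle miRNAs nor the endothelial miR-126 was detected on either array, and of the 4 blood cell miRNAs miR-142-3p alone was, at 6.13 in treated cells. Of the 5 fibroblast and smooth muscle miRNAs, miR-145 and miR-199a-3p were measured, with ratios of 0.10 and 0.11, and miR-143 was detected in treated cells only, at 3.95.

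Detection on 1 array only was more common on the brighter one. On the berberine array 24 miRNAs were detected that were not detected on the control array, with signals from 1.98 to 11.5. On the control array 8 were detected alone, with signals from 2.56 to 5.48. A bound on the fold was taken against the lowest scaled signal detected on the other array and against 3 times the error of the same probes there, and the smaller of both is given. These bounds depend on the scaling and leave out the error of the detected signal, so they hold only for the signals as read. miR-219-5p, at 11.5 ± 1.86 with berberine, was at least 1.33-fold higher, and miR-134, at 9.78 ± 1.82, at least 1.15-fold higher. miR-892b, at 5.48 ± 1.15 in control cells, was at least 2.80-fold lower with berberine, and miR-30d*, at 5.25 ± 1.13, at least 3.49-fold lower. Both signals are dim. After 2 h miR-892b was detected in control cells only, at 6.11, and miR-30d* on neither array. Against 3 times the probes' error none of the 24 was past 2-fold, and 6 of the 8 were. Of the 24, 15 were detected on the 2 h control array and 0 on the 2 h berberine array.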

How the data were processed

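HepG2 total RNA was hybridised to Agilent human miRNA arrays, 1 per condition. The authors deposited Feature Extraction 10.7.3.1 output: a background-subtracted signal intensity and its error for each spot, probe and miRNA, not scaled between arrays, with undetected miRNAs written as 0.1. The authors also deposited a table of berberine over control ratios for 111 miRNAs, which are their own comparison and were not used. In the deposited totals a probe counts only where it exceeds 3 times its error, array by array. So that both sides of a ratio hold the same probes, those above 3 times their error on both 4 h arrays were summed here. Ratios were scaled by the 75th percentile over human miRNAs detected on all 4 arrays; viral miRNAs and control features did not enter. A 95% range is 1.96 SE, and errors of summed signals assume independent errors. The ratio calculation was tested on simulated probe tables with known ratios.

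Array names were matched to RefSeq miRNA names by hand, 5p and 3p for the older asterisk names. Files name an older build, so positions are those of RefSeq (GRCh38.p14). Clusters joined hairpins within 10 kb, and a mature miRNA without a matched sequence was placed in no family or cluster. With 1 array per group there was no test. The miRNAs named were both arms of MIR21, those past 2-fold, up to 8 largest rises and falls beyond the 95% range, the 5 brightest on the control array, 4 detected on 1 array only, members of the 6 largest families and clusters, and hepatocyte miRNAs. Results that need items withheld from this text are not reported here. The members, lists and rules were chosen with earlier results of these data known. Further choices were made after values had been seen. They are the description against the median, the fragment-like entries and their comparison signal of 100, the scaling to control features, and the grouping of arms by asterisk, which replaced a grouping by brighter and dimmer arm because that set different probes' levels against each other. Spots flagged as outliers were left out of the spot values. Alternatives covered scaling, probe summary, background correction (normexp in limma 3.58.1, R 4.3.3, on the median spot signal with an offset of 50), filters, thresholds, seed and cluster definitions. Python 3.11.15, numpy 2.4.6, pandas 2.3.3 and matplotlib 3.10.9 were used.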

Additional observations from a re-analysis of the deposited data

Results flagged for a closer look

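miR-630 and miR-720 lay beyond the 95% range of their measurement error at both times but on opposite sides of 0. No test of either difference was made, since each time has 1 array per condition. For miR-630 the log2 ratio was 0.72 (SE 0.26) at 4 h and -0.62 (SE 0.28) at 2 h, a difference of 1.34. For miR-720 it was -0.43 (SE 0.16) at 4 h and 0.42 (SE 0.16) at 2 h, a difference of -0.85. Of the 195 miRNAs measured at both times, miR-21* was the 1 that lay beyond its range on the same side at both.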

How the results depend on the processing

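The scaling decides how many miRNAs pass 2-fold and the sign of small ratios. miR-21* stayed above 0 under all 12 alternatives run for it, from 0.52 to 2.15, and miR-194* stayed below 0 under the 11 that kept it, from -1.73 to -0.61. miR-1915 stayed above 0 in 11 of 11 alternatives, from 0.03 to 1.08, whereas miR-630 fell to -0.14 with normexp and ran up to 1.19. miR-1234, miR-191* and miR-940 stayed below 0 in 11 of 11, and miR-720 reached 0.04 with control features. Quantile normalization gave miR-720 a ratio of 0 by construction, because it was the brightest miRNA on both arrays, so that value says nothing about its difference. With the 75th percentile over every human miRNA, miR-194 was at -0.09 and miR-21 at -0.17. Without scaling, 3 miRNAs were past 2-fold higher (miR-21*, miR-630 and miR-1915) and 0 lower, with a median of 0.48. With scaling to the control features, chosen after the data were seen, the counts were again 3 and 0 and the median 0.55. With the 75th percentile taken over every human miRNA the median was -0.32, 5 were past 2-fold lower and 1 higher. With normexp correction 0 were past 2-fold in either direction and the median was -0.15. This correction adds an offset of 50 to each spot, which draws the ratios of dim miRNAs toward 0. With all probes summed, or with the brightest probe only, 2 were lower. With only miRNAs above the median signal 0 were lower, since miR-194* is left out. With a threshold of 1.5-fold 3 were higher and 5 lower. The share of measured miRNAs above 0 was 63.3%, and it was 23.7% with scaling by the median, 91.6% without scaling and 93.5% with control features. It was 2.79% with the percentile over all human miRNAs, 53.5% with that over miRNAs detected on both 4 h arrays, 42.8% with quantile normalization and 29.8% with normexp.

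Of the 27 families, 1 kept the sign of its summed ratio under each alternative run for it, of the 31 clusters 1, and of the 71 named miRNAs with a ratio 7. Differences from the median are the same under every constant scaling. Seeds of bases 2 to 7 and clusters joined at 50 kb moved no summed ratio by more than its SE. The deposited ratio table, planned as an alternative, was not run because it holds the authors' own comparison. No paired analysis was possible because each condition has 1 array, and no array could be left out for the same reason. Against 3 times the error of the same probes, bounds past 2-fold went from 5 to 0 for miRNAs detected with berberine only and from 5 to 6 for those detected in control only. The 54 dimmest miRNAs had a median SE of 0.40, so small differences between dim strands were not detectable.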
